A study of Homo sapiens with 12 samples.

Results

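Cells of MDA-MB-231, a human breast cancer line of the triple-negative class, carried a short hairpin RNA against IGF2BP2 (IGF2BP2 KD) and were compared with cells that carried a sham hairpin (control), gene by gene across the transcriptome. The comparison rests on 6 of the 12 RNA sequencing libraries of the series, 3 of IGF2BP2 KD and 3 of control, chosen by the labels alone. The other 6 libraries, 3 with a SIRT1 hairpin together with the IGF2BP2 hairpin (double KD) and 3 with the SIRT1 hairpin only (SIRT1 KD), served as a second background for the same knockdown. All 4 groups share what the controls also carry: lentivirus packaged in HEK-293T cells, Polybrene during infection and lasting puromycin selection, so that each group is a stable line. A treatment field of the labels calls the control untreated, while the protocol gives it the sham hairpin. The sources used here give neither the number of hairpins against IGF2BP2 nor their sequences, so effects of a hairpin other than on its target cannot be told apart from effects of the loss of IGF2BP2. The series describes 3 independent runs per condition, without saying whether each run began with its own infection, so a p-value here reflects the spread among runs, which may be technical.

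IGF2BP2 belongs to a family of RNA-binding proteins, with IGF2BP1 and IGF2BP3, that bind messenger RNAs through KH domains, favour transcripts carrying N6-methyladenosine (m6A), and are known to protect many of them from decay or to alter their translation and transport. The family is abundant in the embryo and is switched on again in many tumours. In breast cancer cells it is studied for its effect on transcripts of growth, metabolism and migration.

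Reads assigned to genes came to 19522606 to 22509142 per library in the 6 libraries, and levels are given throughout as read counts divided by the authors' size factor (normalised counts). The first principal component, which held 47.06% of the variance of the 6 libraries, separated IGF2BP2 KD from control. Control replicate 1 had reads in 37196 genes, against 28909 to 29965 in the other 5 libraries. Mitochondrially encoded transcripts took 2.38%, 2.50% and 2.56% of reads in IGF2BP2 KD libraries, against 2.20%, 1.99% and 2.22% in control libraries. The cells kept the markers of a mesenchymal breast cancer line. The summed level of 10 such genes, among them AXL, VIM and CD44, was 133268 to 139637 in IGF2BP2 KD and 140042 to 148613 in control libraries, with 1 member called higher and 4 lower (1 or 2 lower without any of the control libraries or without IGF2BP2 KD replicate 2 or 3). Of 14 luminal and epithelial markers KRT8, KRT18 and KRT19 carried nearly all of a summed level of 25040 to 26417 in IGF2BP2 KD and 29380 to 29953 in control libraries, while KRT14, TFF1 and ESR1 were near 0, at no more than 2.87, 2.89 and 7.66 normalised counts in any library. Fibroblast markers summed to 727 to 779 in IGF2BP2 KD and 764 to 794 in control libraries, most of it PDGFRB and COL1A1. Immune and endothelial markers summed to 53.2 to 68.1 in IGF2BP2 KD and 56.0 to 89.1 in control libraries, with PTPRC at no more than 5.75 in any library. The 4 packaging cell markers summed to at most 0.892 in IGF2BP2 KD libraries and to 5.75 in control replicate 1, with none in the other control libraries.

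The target fell. IGF2BP2 (chr3:185643739-185825056 of GRCh38, minus strand) had 709, 841 and 736 normalised counts in IGF2BP2 KD libraries, against 3045, 3055 and 3127 in control libraries, 24.8% of the control mean (log2 fold change -2.02, standard error (SE) 0.059, limma adjusted p = 3.31e-15). Every IGF2BP2 KD library lay far below every control library. Its paralogue IGF2BP3, the other family member of these cells, rose: it had 859.9, 915 and 904 in IGF2BP2 KD and 571, 586 and 582 in control libraries (0.62, SE 0.059, adjusted p = 8.44e-08), without overlap. IGF2BP1 was too low to be tested. SIRT1, the deacetylase targeted elsewhere in the series, was slightly lower at 763, 691 and 730.4 in IGF2BP2 KD and 799, 841 and 863 in control libraries (-0.20, SE 0.061, adjusted p = 0.0188), but this call held in only 13 of 18 alternative fits and was lost without control replicate 2 or 3 or IGF2BP2 KD replicate 3.

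Genes were called higher or lower at an adjusted p under 0.05 in a moderated linear model (limma) on log2(normalised count + 1), and "rose" and "fell" are used only of such genes. Numbers in brackets after a gene are its log2 fold change, IGF2BP2 KD minus control, unless another quantity is named. Of 16865 genes tested, 5122 (30.4%) were called: 2355 higher (14.0%) and 2767 lower (16.4%). Most changes were small. Of the genes called, 860 rose and 810 fell by under 0.25 on the log2 scale, and 77 rose (0.457% of genes tested) and 112 fell (0.664%) by at least 2-fold. The median over all genes tested was -0.0040. A fit with all 12 libraries called 2857 genes, 1206 higher and 1651 lower. Under it 73 of the 140 list counts given below moved by over 1.5 times, and 6 with double KD replicate 2 left out of that fit. Leaving out a single library of the comparison moved up to 30. A list is therefore best read by its direction against the 14.0% and 16.4% of all genes. Protein-coding genes held most calls, with 2073 higher and 2588 lower of 13051. Of 799 long intergenic RNAs 71 rose and 63 fell, and of 1182 antisense genes 77 rose and 44 fell. The sources used here do not say how counting treated strand, so antisense genes and their partners cannot be told apart.

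Among protein-coding genes with a mean of at least 5 CPM (reads of a gene scaled to the total of its library) and no overlap between groups, the largest rise was that of ATOH8, a transcription factor of the helix-loop-helix class (chr2:85751344-85788066). It had 414, 409 and 410.3 normalised counts in IGF2BP2 KD libraries, against 79.5, 94.3 and 89.7 in control libraries (2.22, SE 0.096, adjusted p = 1.02e-12). MUC5AC, a gel-forming mucin of airway and stomach epithelium, had 568, 520.4 and 485 in IGF2BP2 KD and 204, 205 and 218 in control libraries (1.32, SE 0.080). ID3, an inhibitor of helix-loop-helix transcription factors, had 148, 132 and 144 in IGF2BP2 KD and 56.5, 65.4 and 59.8 in control libraries (1.21). By the rule of choice, all IGF2BP2 KD libraries stood above all control libraries in each of these genes, as in 20.4% of all genes tested. SLC40A1, the only known cellular iron exporter (ferroportin), rose by 1.08 and BMF, a pro-apoptotic BH3-only protein, by 1.05. ANKRD52, a regulatory subunit of protein phosphatase 6, had 5464, 5162 and 5328 in IGF2BP2 KD and 2623, 2888 and 2723 in control libraries (0.95). The remaining large rises were FAM222B (1.21), FAM234B (0.96) and AMMECR1 (0.91), the 5-methylcytosine dioxygenase TET2 (0.95), the HMG-box factor SOX4 (0.94), the SLIT receptor ROBO1 (0.94), the antiproliferative gene BTG2 (0.90), the leukocyte integrin chain ITGB2 (0.88) and the CDC42-binding kinase CDC42BPG (0.87).

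By the same rule, and after the target itself, the largest fall was that of AREG (amphiregulin), a ligand of the epidermal growth factor (EGF) receptor at chr4:74445134-74455009. It had 571, 634 and 668 normalised counts in IGF2BP2 KD libraries, against 2431, 2103 and 2258 in control libraries (-1.86, SE 0.065, adjusted p = 3.82e-14). The neutrophil chemokine CXCL8 had 589, 491 and 574 in IGF2BP2 KD and 1603, 1767 and 1815 in control libraries (-1.65, SE 0.069). The cytokine IL24 had 163, 178 and 176 in IGF2BP2 KD and 549, 521 and 556 in control libraries (-1.65). By the rule of choice, every IGF2BP2 KD library lay below every control library in each of the 3 genes, as in 22.1% of all genes tested. SRI (sorcin, a calcium-binding protein) had 750.2, 673 and 725 in IGF2BP2 KD and 2083, 2249.8 and 2188 in control libraries (-1.60), and RPL7L1, a ribosomal protein L7-like gene of higher abundance, had 3727, 3612 and 3702 in IGF2BP2 KD and 9718, 10148 and 9770.1 in control libraries (-1.42). Further large falls were those of the kisspeptin precursor KISS1 (-1.46), the serine incorporator SERINC2 (-1.43), the phosphatidylinositol 4-kinase PI4K2B (-1.39), MTPN (-1.35) (myotrophin), the sphingosine-1-phosphate receptor S1PR2 (-1.35), the chloride-proton exchanger CLCN5 (-1.30), LRATD2 (-1.30), the junctional adhesion protein CXADR (-1.29) and the lysosomal enzyme GALC (-1.29). All 30 of these rises and falls were called in all 18 alternative fits.

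**Figure D1:**
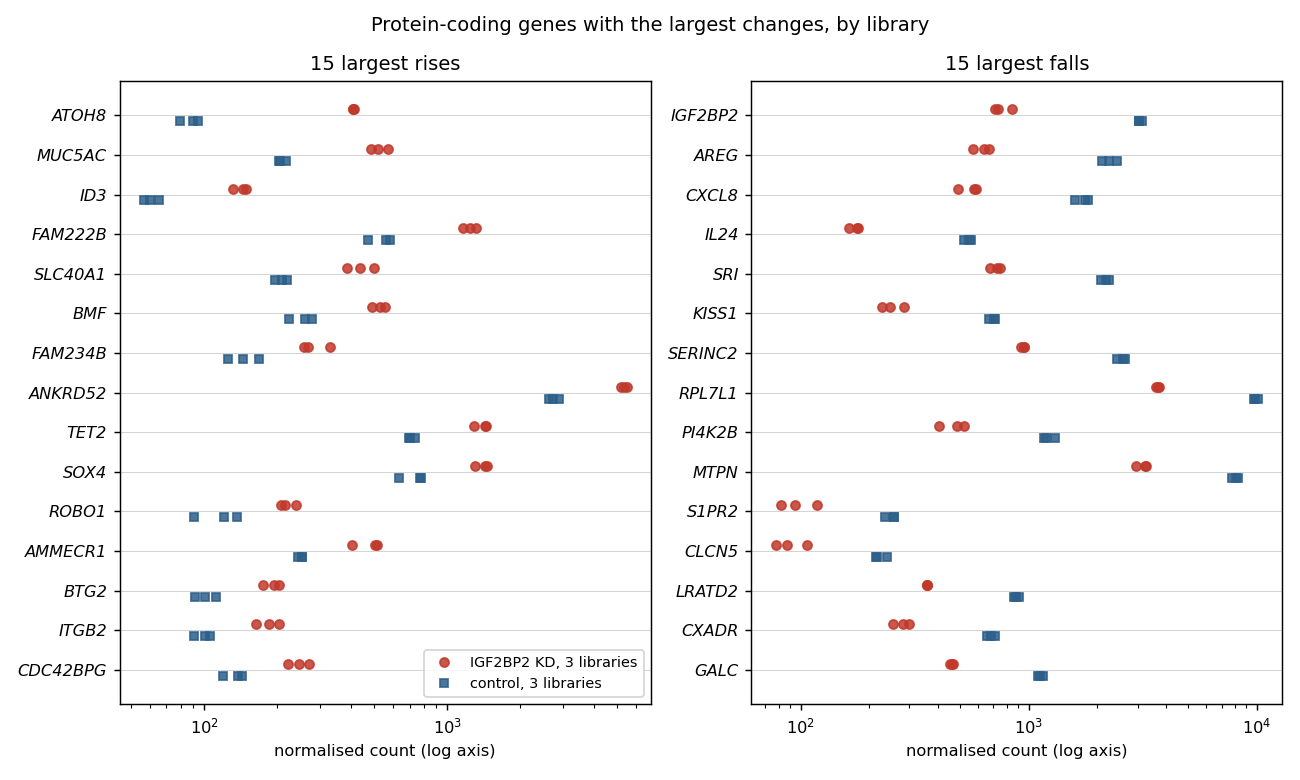
Normalised count (x axis, log scale) of the 15 largest rises (left) and the 15 largest falls (right) among protein-coding genes, 1 point per library, IGF2BP2 KD above control in each row. By the rule of choice, the 3 IGF2BP2 KD libraries and the 3 control libraries do not overlap in any row. The gaps run from ATOH8 at 409 to 414 against 79.5 to 94.3 down to the smallest near 0.87 on the log2 scale.

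Among genes of other classes, the largest rises were in the long intergenic RNA LINC01963 (0.87), the processed transcript LINC01232 (0.85), the microRNA host gene MIR181A1HG (0.69), the antisense gene ENSG00000279159 (0.67) and LINC02595 (0.60). The largest falls were in the immunoglobulin variable segment IGHV3-15 (-1.05), the pseudogenes PDE4DIPP2 (-0.99) and RPL13AP20 (-0.88), the long intergenic RNA UCA1 (-0.93) and the antisense gene ENSG00000272405 (-0.89). The pseudogenes share sequence with their parent genes, so their reads are uncertain. The most abundant genes that were called moved less. EEF1A1, the elongation factor that brings aminoacyl-tRNA to the ribosome, had 100830, 100216 and 102126 in IGF2BP2 KD and 113917, 107548 and 115480 in control libraries (-0.15), and the giant scaffold protein AHNAK had 131689, 119120 and 117325 in IGF2BP2 KD and 87348, 86372 and 82641 in control libraries (0.52). The cytoplasmic actin gene ACTG1 (-0.49) and the endoplasmic reticulum chaperone HSPA5 (-0.55) fell, and PLEC (0.17), ENO1 (0.15), MYH9 (0.12), MT-CO3 (0.19) and MT-ND4 (0.18) rose. Of these small rises MYH9 held in 14 of 18 alternative fits (not without control replicate 2 or 3), MT-CO3 in 15 and MT-ND4 in 14 (neither without IGF2BP2 KD replicate 2).

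The m6A machinery moved little. Among 14 tested IGF2BP proteins and other m6A readers 4 rose and 2 fell, with IGF2BP3 (0.62), FMR1 (0.17), ELAVL1 (0.16) and PRRC2A (0.13) higher and the target and FXR2 (-0.29) lower. The 3 smaller rises were not stable: 1 member rose without control replicate 1, 2 without control replicate 2 or IGF2BP2 KD replicate 1 or 3, and 7 without IGF2BP2 KD replicate 2. The YTH-domain readers were not called, at -0.11 for YTHDF1, -0.067 for YTHDF2 and -0.10 for YTHDF3. Of 11 writers and erasers only the methyltransferase subunit METTL3 (-0.26) fell, and FTO (0.14) and METTL14 (0.13) were not called. Without IGF2BP2 KD replicate 2, 3 of them rose, and without IGF2BP2 KD replicate 3 none fell.

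Transcripts that the literature reports as bound by IGF2BP proteins split evenly, with 5 of 17 tested higher and 5 lower and a median of -0.031. HMGA2, an architectural chromatin protein of embryo and tumour, had 1600.2, 1581 and 1591 in IGF2BP2 KD and 995, 957 and 995 in control libraries (0.70). Its IGF2BP2 KD libraries all lay above its control libraries. The G1 cyclin CCND1 (0.38), the actin bundler FSCN1 (0.48) and the proliferation antigen MKI67 (0.19) were among the others that were higher. The cyclin CCND2 (-1.54), HMGA1 (-0.57), hexokinase 2 HK2 (-0.25) and MYC (-0.19) were among those that were lower. CCND2 was scarce, with 8.92, 11.1 and 6.71 counts in IGF2BP2 KD and 25.9, 29.0 and 27.0 in control libraries. Its fall did not recur in double KD against SIRT1 KD, where its log2 fold change was 0.091 (not called), and -0.17 without double KD replicate 2. CD44 (-0.082), ACTB (-0.075), CTNNB1 (-0.026) and IGF1R (0.038) were not called.

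Cytokines and chemokines were mostly lower. Of 20 tested, 13 fell and 1 rose, with a median log2 fold change of -0.74. Beyond CXCL8 and IL24, the acute-phase cytokine IL6 had 408, 455 and 406 normalised counts in IGF2BP2 KD and 897, 936 and 935 in control libraries (-1.13, SE 0.065), and IL11, of the same receptor family, had 248, 257 and 266 in IGF2BP2 KD and 525, 585 and 513 in control libraries (-1.07). The alarmin IL1A had 44.6, 32.1 and 24.0 in IGF2BP2 KD and 65.1, 75.6 and 68.5 in control libraries (-1.07). None of the 3 overlapped between groups, and 22.1% of all genes tested were lower without overlap. The neutrophil chemokines CXCL2 (-1.14), CXCL1 (-0.88) and CXCL3 (-0.80) fell with CXCL8, as did IL1B (-0.95), the granulocyte-macrophage factor CSF2 (-0.67), and LIF (-0.35), IL32 (-0.34) and IL18 (-0.24). The macrophage growth factor CSF1 (0.37) rose. CCL26 (-0.92), IL34 (-0.49), CSF3 (-0.44) and CXCL16 (-0.22) were low or uneven and not called. In the alternatives 11 to 15 members fell, except that 8 fell among genes with a mean of at least 5 CPM, since fewer were tested.

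Genes of the NF-kB system, the transcription factor family known to drive many of these cytokines, were lower as well: 12 of 24 tested fell and 1 rose (median -0.15). Mitochondrial superoxide dismutase SOD2, a classical target, had 2192, 2546 and 2531 in IGF2BP2 KD and 6104, 5153 and 6012 in control libraries (-1.25, SE 0.065), without overlap. The nuclear coactivator NFKBIZ (-0.60), the adhesion receptor ICAM1 (-0.55), the inhibitors NFKBIB (-0.46) and NFKBIE (-0.16), the subunits RELB (-0.32) and NFKB2 (-0.28), the adaptor TRAF1 (-0.32), the kinase IKBKB (-0.21), the ubiquitin ligases BIRC2 (-0.18) and BIRC3 (-0.18) and the deubiquitinase CYLD (-0.22) fell, and the kinase scaffold IKBKG (0.32) rose. The main subunits RELA (-0.11) and NFKB1 (-0.081) and the feedback inhibitors NFKBIA (-0.12) and TNFAIP3 (-0.15) were not called.

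Promoters of the fallen cytokines are shown because several carry the NF-kB motif near the start of transcription. In RefSeq promoters of GRCh38.p14, from 250 bases before to 50 bases after each start, the motif GGNNTTTCC on either strand stood in 6.26% of 35116 promoters, in 8.83% of those of all genes that fell and in 9.75% of those that rose. It stood in 6 of the 11 fallen cytokines with a promoter in the table, and in 7 of 9 fallen members of the NF-kB list, which was itself chosen for known targets and holds it in 14 of 21 tested members with a promoter. The matches, in capitals within 30 bases, read as follows.
CXCL8, chr4:73740468-73740497, plus strand: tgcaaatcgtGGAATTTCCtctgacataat
IL6, chr7:22727118-22727147, plus strand: atcaaatgtgGGATTTTCCcatgagtctca
CXCL1, chr4:73869305-73869334, plus strand: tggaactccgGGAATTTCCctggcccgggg
CXCL2, chr4:74099253-74099282, minus strand: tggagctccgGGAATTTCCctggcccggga
CXCL3, chr4:74038748-74038777, minus strand: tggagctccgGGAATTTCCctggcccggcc
ICAM1, chr19:10270924-10270953, plus strand: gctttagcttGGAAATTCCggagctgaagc
The motif lies at -91 from the start in CXCL8, at -72 in IL6 and at -78, -77 and -78 in CXCL1, CXCL2 and CXCL3, whose windows are nearly the same. In ICAM1 it lies on the opposite strand. NFKB1, NFKBIA and TNFAIP3, which were not called, hold the motif too. The AP-1 motif TGANTCA stood in 7.71% of all promoters and in 3 of the 11 fallen cytokines, CXCL8, IL11 and IL1A.

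CXCL8, CXCL1, CXCL2, CXCL3, AREG and EREG are neighbours on chromosome 4. Of 15 tested genes of this stretch and its flanks 7 fell and 1 rose (median -0.12). The 7 were the 4 chemokines, AREG (-1.86) and EREG (-0.78) and G3BP2 (-0.42), a stress granule protein, and ANKRD17 (0.33) rose. Genes between and beside them were not called, at -0.12 for MTHFD2L, -0.11 for the EGF receptor ligand BTC, 0.14 for RASSF6 and -0.12 for USO1.

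Ligands, receptors and sheddases of the EGF receptor system were lower: 10 of 16 tested fell and 1 rose (median -0.18). Besides AREG, epiregulin EREG had 354, 332 and 382 in IGF2BP2 KD and 628, 605 and 599.8 in control libraries (-0.78), and TGFA had 1405, 1357 and 1367 in IGF2BP2 KD and 2250.3, 2196 and 2380.1 in control libraries (-0.72). The sheddase ADAM17 (-0.21), its regulators RHBDF2 (-0.43) and RHBDF1 (-0.35), the sheddase ADAM10 (-0.14), the receptor ERBB2 (-0.14) and the feedback inhibitors ERRFI1 (-0.44) and LRIG1 (-0.35) also fell. EGFR itself (0.10) and HBEGF (-0.12) were not called, and neuregulin 1 NRG1 (0.23) rose.

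Immediate-early genes, which answer growth signals within minutes, were lower in most cases: 16 of 27 tested fell and 3 rose (median -0.26). The matricellular genes CCN2 (-0.68) and CCN1 (-0.60), the orphan receptors NR4A2 (-0.67) and NR4A1 (-0.58), the zinc finger factors EGR1 (-0.50) and KLF4 (-0.48), and IER2 (-0.51), JUNB (-0.47), ATF3 (-0.42) and FOSL1 (-0.30) fell. EGR1 had 124, 176 and 135 in IGF2BP2 KD and 205, 202 and 202 in control libraries. BTG2 rose as given above, with FOSL2 (0.23) and IER5 (0.20), while FOS (-0.26) and JUN (-0.067) were not called. Among feedback genes of the ERK pathway 8 of 21 fell and 2 rose (median -0.15). The phosphatase DUSP5 had 1764, 1869 and 1849 in IGF2BP2 KD and 3275, 3309.7 and 3168 in control libraries (-0.83). Its relatives DUSP1 (-0.73) and DUSP6 (-0.41) and the ETS factors ETV4 (-0.24) and ETV5 (-0.22) fell too, and DUSP7 (0.17) and CCND1 rose. With a correction for GC content and length 5 members rose and 9 fell.

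ATF4, the transcription factor of the integrated stress response, and its targets for amino acid supply were lower: 25 of 34 tested fell and 3 rose, with a median of -0.41. ATF4 itself had 2757, 3126 and 2834 in IGF2BP2 KD and 4409, 4261 and 4298 in control libraries (-0.57, SE 0.050). Asparagine synthetase ASNS had 75.8, 90.4 and 69.0 in IGF2BP2 KD and 152, 153 and 141 in control libraries (-0.92, SE 0.13), and the stress cytokine GDF15 had 245, 279 and 285 in IGF2BP2 KD and 667, 603 and 624 in control libraries (-1.23). All 3 were free of overlap, as were 22.1% of all genes tested in the lower direction. The alanine transaminase GPT2 (-1.04), the glutathione-degrading enzyme CHAC1 (-0.92), the bZIP partners CEBPB (-0.91) and CEBPG (-0.83), and the angiogenic factor VEGFA (-0.87) fell strongly. Single enzymes of serine, cysteine and proline synthesis fell (PSAT1 (-0.57), CTH (-0.61) and PYCR1 (-0.32)), as did the mitochondrial folate enzymes MTHFD2 (-0.42) and SHMT2 (-0.28) and the transporters SLC1A4 (-0.81), SLC7A11 (-0.58), SLC1A5 (-0.47) and SLC38A2 (-0.23). The pseudokinase TRIB3 (-0.46), DDIT3 (-0.43) (CHOP) and the phosphatase subunit PPP1R15A (-0.40) fell. The 3 rises were ATF5 (0.34), SLC7A5 (0.24) and DDIT4 (0.12), and PHGDH (-0.30) and SESN2 (0.093) were not called.

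The aminoacyl-tRNA synthetases of the cytosol, several of which are known ATF4 targets, were lower in the same libraries: 14 of 20 fell and 2 rose (median -0.30). LARS1 had 3854, 3553 and 3893 in IGF2BP2 KD and 5717, 5620.2 and 5801 in control libraries (-0.60), AARS1 had 2865, 2935 and 2939 in IGF2BP2 KD and 4225, 4120.4 and 4204 in control libraries (-0.52), and WARS1 stood at -0.57. TARS1 (-0.46), MARS1 (-0.39), YARS1 (-0.39), NARS1 (-0.37), FARSB (-0.36) and GARS1 (-0.34) followed, while HARS1 (0.20) and KARS1 (0.17) rose and QARS1 (0.087) and RARS1 (0.096) were not called. The counts of ATF4 targets and of synthetases lower in IGF2BP2 KD stayed within 1.5 times in all 18 alternatives.

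The composite motif that ATF4 binds with C/EBP partners is shown for the fallen synthetases. TGATGNAA on either strand stood in 3.62% of all promoters, in 3.63% of those of all genes that fell, in 7 of 11 fallen synthetases with a promoter in the table and in 7 of 20 fallen members of the ATF4 list. None of the synthetases that were tested but did not fall and had a promoter held it, in 5 such promoters.
AARS1, chr16:70289675-70289704, minus strand: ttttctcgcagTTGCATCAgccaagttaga
IARS1, chr9:92293692-92293721, minus strand: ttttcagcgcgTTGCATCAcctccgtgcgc
MARS1, chr12:57488053-57488082, plus strand: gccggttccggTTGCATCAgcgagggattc
TARS1, chr5:33440956-33440985, plus strand: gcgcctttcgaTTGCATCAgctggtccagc
CARS1, chr11:3057407-3057436, minus strand: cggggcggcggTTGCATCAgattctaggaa
ASNS, chr7:97872458-97872487, minus strand: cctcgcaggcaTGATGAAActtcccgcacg
CHAC1, chr15:40953251-40953280, plus strand: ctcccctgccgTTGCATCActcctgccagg
The capitals mark the match, which reads TTGCATCA in the 5 synthetases and in CHAC1 and TGATGAAA on the other strand in ASNS. It lies at -187 from the start in AARS1, at -13 in IARS1, at -4 in MARS1, at 2 in TARS1 and at -2 in CARS1.

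Chaperones and degradation factors of the endoplasmic reticulum were lower too, by smaller amounts: 19 of 36 fell and 1 rose (median -0.18). HSPA5 (BiP), the main chaperone of this compartment, had 40854, 42057 and 41163 in IGF2BP2 KD and 59008, 63055 and 59943 in control libraries (-0.55). Its partner chaperones HYOU1 (-0.41) and HSP90B1 (-0.35), the disulfide isomerase PDIA4 (-0.30), the stress sensors ERN1 (-0.43) and EIF2AK3 (-0.24) and the effector XBP1 (-0.41) fell, with MANF (-0.34), DNAJB9 (-0.34), ERO1A (-0.33) and SDF2L1 (-0.33). PDIA3 (-0.098), CALR (-0.016), CANX (-0.043) and ATF6 (-0.037) were not called, and the lectin OS9 (0.18) rose. The ER stress element, a promoter motif of unfolded protein response targets searched on both strands, stood in 0.0769% of all promoters, in 8 of 32 tested members with a promoter and in 3 of 19 that fell, HSPA5, HSP90B1 and XBP1.
HSPA5, chr9:125241385-125241414, minus strand: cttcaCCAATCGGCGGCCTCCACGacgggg
XBP1, chr22:28800597-28800626, minus strand: gctggCCAATCGCGGAGGGCCACGaccgta
CALR, CANX, CRELD2 and ERO1B hold the element and were not called. Heat shock chaperones of the cytosol showed 11 falls and 3 rises in 34 tested (median -0.093), with AHSA1 (-0.34), HSP90AB1 (-0.31), DNAJB1 (-0.31) and HSPA4 (-0.30) lower and BAG3 (0.30) and BAG1 (0.26) higher. Without IGF2BP2 KD replicate 2, 12 fell and 6 rose.

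**Figure D2:**
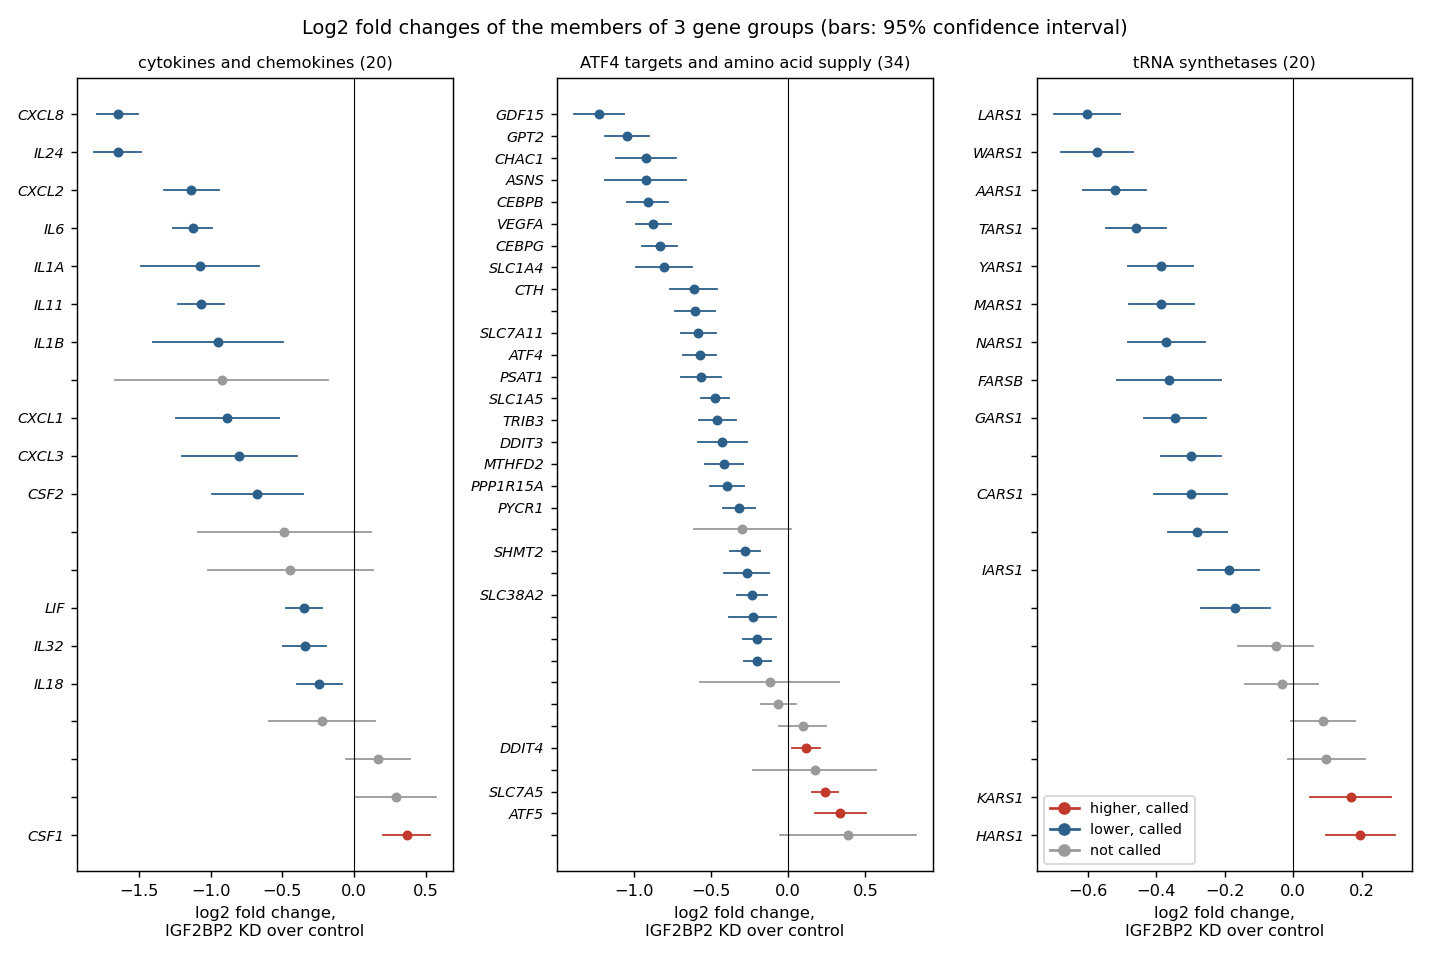
Log2 fold change, IGF2BP2 KD minus control, with its 95% confidence interval, for every tested member of the cytokines and chemokines (20), ATF4 targets (34) and tRNA synthetases (20); coloured points were called, and called members described in the text are labelled. Most members lie left of 0, with medians of -0.74, -0.41 and -0.30.

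Solute carriers, the largest family of membrane transporters, were lower more often than all genes: 77 of 246 tested (31.3%) fell, against 16.4% of all genes, and 36 (14.6%) rose, against 14.0%. Apart from the amino acid carriers already named, falls included SLC66A2 (-1.23), SLC22A31 (-1.48), SLC8B1 (-0.82), SLC26A2 (-0.81), SLC25A15 (-0.78), SLC25A11 (-0.69), SLC38A1 (-0.49) and SLC7A2 (-0.57). SLC66A2 had 280.1, 331 and 283 in IGF2BP2 KD and 695, 713 and 689 in control libraries. The rises were led by SLC40A1, followed by SLC10A1 (0.87), SLC2A12 (0.61) and SLC29A3 (0.53).

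Of 15 tested plasminogen activators and serpins 8 fell and 2 rose (median -0.15). Urokinase PLAU had 5089.8, 5320.4 and 5282 in IGF2BP2 KD and 8666, 8743 and 8918 in control libraries (-0.75), with its receptor PLAUR (-0.50) and the tissue-type activator PLAT (-0.72) also lower. Serpins moved both ways, with SERPINE2 (-0.91), SERPINB9 (-0.73) and SERPINB8 (-0.43) lower and SERPINF1 (0.65) and SERPINA1 (0.25) higher, though no member rose without control replicate 2 or IGF2BP2 KD replicate 3. Of 14 matrix metalloproteinases and their inhibitors only TIMP3 (-0.64) and the membrane-type enzyme MMP14 (-0.19) fell, and MMP19 (0.56) rose. With a correction for GC content and length 4 rose and 2 fell.

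Structural genes of the extracellular matrix moved in both directions, with 16 of 39 tested lower and 7 higher (median -0.10). The collagen cross-linking oxidase LOX had 1261, 1271 and 1315 in IGF2BP2 KD and 2686, 2519 and 2644 in control libraries (-1.03). The collagen chain COL5A1 moved the other way, with 9979.7, 11336 and 10446 in IGF2BP2 KD and 6276, 5882 and 5996 in control libraries (0.81). Laminin chains of epithelial basement membrane fell (LAMB1 (-0.40), LAMA3 (-0.22) and LAMB3 (-0.20)), as did FN1 (-0.37), FBN1 (-0.36), COL6A2 (-0.49), COL8A1 (-0.51) and LOXL4 (-0.66). COL17A1 (0.54), COL4A1 (0.22), COL1A1 (0.23) and LOXL2 (0.19) rose. Among integrin chains 4 of 16 fell, ITGA2 (-0.42), ITGA3 (-0.32), ITGB1 (-0.21) and ITGA6 (-0.14), and only ITGB2 rose, at 163, 185 and 203 in IGF2BP2 KD and 91.0, 106 and 101 in control libraries. EMT transcription factors and cadherins had 3 of 11 lower (FOXC1 (-0.47), ESRP2 (-0.39) and ZEB1 (-0.13)), none higher, and SNAI2 (0.082), ZEB2 (-0.053) and CDH2 (-0.017) not called.

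Tight junction components split. The claudin CLDN1 had 25.0, 32.1 and 46.0 in IGF2BP2 KD and 123, 115 and 135 in control libraries (-1.86, SE 0.18), at low counts, and CXADR had 282, 254 and 298 in IGF2BP2 KD and 679.9, 654 and 713 in control libraries. CLDN12 (-1.01) and CLDN7 (-0.61) were lower, while CLDN2 (0.46) and CLDN4 (0.34) and the scaffolds PARD6B (0.33), MAGI1 (0.25), PATJ (0.24) and TJP1 (0.19) were higher. In all 9 of 28 rose and 7 fell, but 5 rose and 7 fell without control replicate 2.

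Ligands and antagonists of the TGF-beta superfamily changed widely, with 13 of 35 tested lower and 8 higher and a median of -0.0047. TGFB2 had 1936, 2114 and 2010.1 in IGF2BP2 KD and 4811, 4495 and 5009 in control libraries (-1.24), and TGFB1 (-0.38) fell while TGFB3 (0.62) rose. The secreted antagonists follistatin FST (-0.76), FSTL3 (-0.96) and noggin NOG (-0.82) fell, as did the ubiquitin ligase SMURF2 (-0.54). BMP4 (0.40) and the receptors BMPR2 (0.45), TGFBR3 (0.50), TGFBR2 (0.33) and ACVR2B (0.33) rose, and TGFBR1 (-0.30) and ACVR1B (-0.29) fell. Of 11 genes known to respond to BMP, 5 rose: ATOH8, ID3, the inhibitory SMADs SMAD6 (0.61) and SMAD7 (0.47) and ID1 (0.28). ID2 had 18.7, 14.1 and 14.4 in IGF2BP2 KD and 6.70, 6.54 and 13.5 in control libraries and was not called (0.81). TNFRSF11B (-1.54), SMAD9 (-0.42) and RUNX2 (-0.22) fell.

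Of 6 mucins and related genes tested, the gel-forming neighbours on chromosome 11, MUC5AC and MUC5B, rose. MUC5B had 58.9, 88.4 and 56.6 in IGF2BP2 KD and 40.2, 23.3 and 28.0 in control libraries (1.14, SE 0.21). MUC1 (-0.19) and MUC4 (0.13) were not called. Iron handling genes split, with 9 of 30 higher and 8 lower. Ferroportin SLC40A1 had 501, 386 and 437 in IGF2BP2 KD and 195, 208 and 219 in control libraries, and the transferrin receptor TFRC, which works in the opposite direction, also rose, with 10632, 8227 and 9273 in IGF2BP2 KD and 5302, 6438 and 5825 in control libraries (0.68). The importer SLC11A2 (0.38), the iron regulatory protein IREB2 (0.30) and HFE (0.39) rose. The siderophore-binding LCN2 (-1.56), the reductase STEAP3 (-0.83), its relative STEAP1 (-0.49) and the iron sensor FBXL5 (-0.24) fell, and ferritin was not called, at -0.10 for FTL. The balance of this list turned without control replicate 2 (6 higher, 8 lower) or IGF2BP2 KD replicate 3 (6 and 7), and 5 fell without control replicate 3.

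Enzymes that write and erase chromatin marks were more often higher than lower. Among 16 tested DNA methylation genes 10 rose and 2 fell (median 0.21). All 3 TET dioxygenases, which oxidise methylated cytosine, rose. TET2 had 1439, 1289 and 1423 in IGF2BP2 KD and 705, 739.6 and 694 in control libraries (0.95, SE 0.059). TET3 had 1137, 1096 and 1086 in IGF2BP2 KD and 676, 623 and 647 in control libraries (0.77), and TET1 had 188, 186 and 195 in IGF2BP2 KD and 124, 106 and 112 in control libraries (0.73). In all 3 genes every IGF2BP2 KD library lay above every control library, as in 20.4% of all genes tested. Without control replicate 2 the list had 9 higher and none lower, and none was lower without IGF2BP2 KD replicate 3. The de novo methyltransferases DNMT3B (0.52) and DNMT3A (0.22), UHRF1 (0.24) and IDH1 (0.31), which makes the TET cofactor, rose, TDG (-0.24) and MBD1 (-0.19) fell, and DNMT1 (-0.033) was not called.

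Chromatin remodellers of the SWI/SNF and CHD families had 19 of 38 tested higher and 4 lower (median 0.12). The rises were of small to moderate size, led by CHD7 (0.60), PBRM1 (0.39), CHD8 (0.36), SMARCC1 (0.29), SMARCC2 (0.26) and ARID1A (0.25), and SS18 (-0.63) fell. Without a control library 14 or 15 rose and 1 or 2 fell. Histone methyltransferases and demethylases had 17 of 47 higher and 4 lower, with KMT2C (0.44), JARID2 (0.41), KMT2D (0.33), SETD2 (0.30), KDM3A (0.30) and KDM6B (0.29) higher and SETD7 (-1.07), KDM7A (-0.74), KDM1B (-0.58) and EZH2 (-0.21) lower. Without control replicate 1 or 2 the number higher was 10 or 11. SETD7 was the strongest, with 1764, 1689 and 1748 in IGF2BP2 KD and 3544, 3633 and 3746 in control libraries. Acetyltransferases and deacetylases had 10 of 35 higher and 3 lower, with the coactivators KAT2B (0.57), CREBBP (0.50) and EP300 (0.30) and HDAC8 (0.38) and HDAC1 (0.35) higher and HDAC9 (-0.46) lower. Without IGF2BP2 KD replicate 2, 7 of this list fell and 11 rose, and 1 fell without control replicate 2 or 3 or IGF2BP2 KD replicate 3.

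MicroRNA machinery was higher in 7 of 18 tested genes and lower in 3. Argonaute AGO2, the slicing effector, had 7524, 6537 and 6791 in IGF2BP2 KD and 4055, 4056 and 4193 in control libraries (0.76, SE 0.050), and the processing enzyme DICER1 had 4015, 3383 and 3738 in IGF2BP2 KD and 2284, 2396 and 2292 in control libraries (0.67). The effector TNRC6C (0.60) and AGO4 (0.34) and TARBP2 (0.30) rose, and TNRC6A (-0.23), AGO3 (-0.17) and DROSHA (-0.15) fell, 1 of the 3 without control replicate 2 or 3. Decapping and deadenylation factors split, with 8 of 38 higher and 10 lower. The decapping enzyme DCP2 (0.64) and its cofactor DCP1A (0.30) were higher, and BTG1 (-0.60), XRN2 (-0.53), PAN2 (-0.42) and LSM14A (-0.35) were lower. Leaving out a single library left 5 higher for all but IGF2BP2 KD replicate 2, and 6 lower without control replicate 3.

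Initiation factors and cytosolic ribosomal protein genes had more falls than rises, by small amounts. Of 52 tested initiation factors 15 fell and 4 rose (median -0.063). The helicase subunit EIF4A1 had 184, 186 and 194 in IGF2BP2 KD and 270.0, 276 and 225 in control libraries (-0.45), and EIF3F (-0.43), EIF1 (-0.41) and EIF2S2 (-0.27) fell. The inhibitor EIF4EBP2 (0.77) rose, with EIF4E2 (0.40), and EIF4EBP1 (-0.26) fell. The number higher was 2 without control replicate 1 or 3 and 8 without IGF2BP2 KD replicate 2. Of 82 tested cytosolic ribosomal protein genes 20 fell and 2 rose, 69 stood below 0, and the median was -0.076. The falls were small, for example RPS4X (-0.27), RPS3 (-0.16) and RPL10A (-0.16). Their number hung on single libraries: 11 without control replicate 1, 5 without control replicate 3 and 11 without IGF2BP2 KD replicate 3. It was 38 with a correction for GC content and length. With all 12 libraries it was 2, and 11 with double KD replicate 2 left out of that fit. Ribosomal protein genes share sequence with many pseudogenes, so their counts are uncertain. Of 77 mitochondrial ribosomal protein genes 10 fell and 2 rose, and 16 fell and 6 rose without IGF2BP2 KD replicate 2.

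Of 29 tested named long non-coding RNAs, 19 fell and 3 rose (median -0.30). Several of these RNAs host small nucleolar RNAs, a grouping made after the values were seen: SNHG3 (-0.69), SNHG8 (-0.68), SNHG7 (-0.41), GAS5 (-0.40), SNHG12 (-0.38), ZFAS1 (-0.38), SNHG1 (-0.37), SNHG15 (-0.31), EPB41L4A-AS1 (-0.32), SNHG5 (-0.28) and SNHG29 (-0.21) were lower and SNHG16 (-0.086) was not called. SNHG3 had 1026, 926 and 905 in IGF2BP2 KD and 1517, 1591 and 1498 in control libraries, and the microRNA cluster host MIR17HG had 66.9, 46.2 and 61.3 in IGF2BP2 KD and 91.9, 128 and 121 in control libraries (-0.96). The abundant nuclear RNA MALAT1 (-0.33) and the cytoplasmic NORAD (-0.29) fell, and FTX (0.59), PVT1 (0.30) and OIP5-AS1 (0.17) rose. These counts kept within 1.5 times when any single library was left out.

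**Figure D3:**
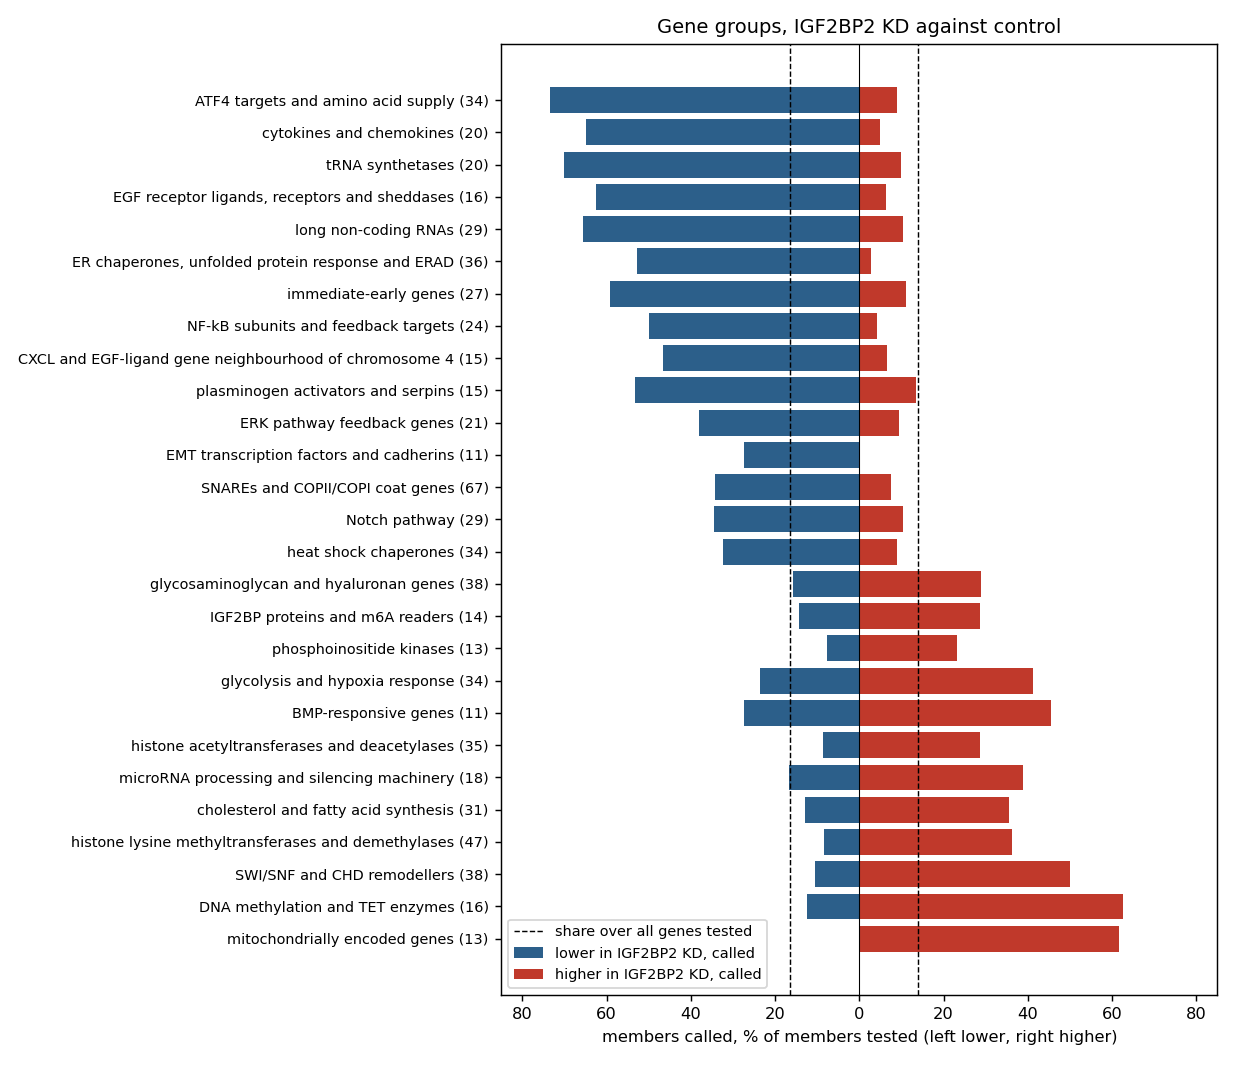
Share of tested members that fell (left, x axis in percent) and rose (right, x axis in percent) in IGF2BP2 KD for 27 gene groups of at least 10 tested members, the 15 lowest and 12 highest in share higher minus share lower; dashed lines mark all genes tested at 16.4% lower and 14.0% higher. ATF4 targets, tRNA synthetases, cytokines and long non-coding RNAs stand at the lower end, and the DNA methylation and SWI/SNF groups at the higher end.

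Glycolysis and hypoxia genes were higher in 14 of 34 and lower in 8. ALDOC (0.71), CA12 (0.46), CA9 (0.46), EGLN3 (0.42) and KDM3A (0.30) and the glycolytic enzymes GPI (0.22), PGAM1 (0.22), ENO1 (0.15) and TPI1 (0.14) rose, while VEGFA, NDRG1 (-0.40), ADM (-0.37) and SLC2A3 (-0.28) and HK2 fell and HIF1A (-0.0073) was not called. Without control replicate 1, 9 rose, and with all 12 libraries 5 rose and 6 fell (14 and 7 with double KD replicate 2 left out of that fit). Cholesterol and fatty acid synthesis had 11 of 31 higher (MVK (0.33), NSDHL (0.29) and LSS (0.27) among them) and 4 lower (STARD4 (-0.53), ACSS2 (-0.40), HMGCS1 (-0.27) and FASN (-0.17)). Of the 13 mitochondrially encoded genes 8 rose and none fell (median 0.18), led by MT-ND1 (0.40) and MT-ND5 (0.25), the same shift as in their share of reads. None was called with all 12 libraries, and 8 rose when double KD replicate 2 was left out of that fit. Nuclear-encoded respiratory chain subunits had 7 of 76 higher and 6 lower. That count hung on single libraries, with 2 higher and 6 lower without control replicate 1 and 17 and 9 without IGF2BP2 KD replicate 2.

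Lysosomal hydrolases had 15 of 50 higher and 10 lower. The aspartic protease CTSD had 10874, 13206 and 11693 in IGF2BP2 KD and 8432, 7969.9 and 8399.7 in control libraries (0.52), and CTSA (0.42) and HEXA (0.38) rose. Galactosylceramidase GALC fell, with 449.6, 467 and 461 in IGF2BP2 KD and 1115, 1098 and 1155 in control libraries, and the sialidase NEU1 (-0.85) and the proteases CTSL (-0.43) and CTSC (-0.17) fell too. The number lower was 6 without control replicate 1 or IGF2BP2 KD replicate 3 and 5 without control replicate 3. Subunits of the lysosomal proton pump had 6 of 23 higher, led by ATP6AP1 (0.37) and ATP6V1G1 (0.31), and 4 lower (1 without control replicate 3). Autophagy and nutrient-sensing genes had 10 of 46 higher and 8 lower, with ATG14 (0.40), FNIP1 (0.34), ATG16L1 (0.33) and TFEB (0.29) higher and ATG4D (-0.63), GABARAPL2 (-0.45) and WIPI1 (-0.40) lower, and 5 higher and 8 lower without control replicate 2, and 4 lower without control replicate 1 or 3. NRF2 targets moved both ways: the pentose phosphate and NADPH enzymes PGD (0.26), ME1 (0.27) and TKT (0.23) and NQO1 (0.30) rose, while TXNRD1 (-0.65), GCLC (-0.33), SRXN1 (-0.33) and AKR1C1 (-0.72) and SLC7A11 fell, 8 higher and 6 lower of 26.

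Cell cycle genes stood mostly outside the calls. Of 46 DNA replication genes 1 rose and 8 fell, and of 44 mitosis genes 4 rose and 7 fell, but the balance turned without IGF2BP2 KD replicate 2 (12 higher and 9 lower, and 14 higher and 6 lower). PCNA (-0.031), TOP2A (-0.034) and CDK1 (-0.11) were not called, and the replication protein RPA2 (-0.61) and the kinesin CENPE (-0.65) fell. Among G1 regulators 6 of 27 rose and 8 fell. The CDK inhibitor CDKN1B (p27) had 1629, 1652 and 1614 in IGF2BP2 KD and 1064, 1069 and 1132 in control libraries (0.58), CDC25A (0.52) and RB1 (0.33) rose with CCND1, and E2F5 (-0.67), CCNE1 (-0.57) and CDK6 (-0.45) fell with CCND2. Replication-dependent histones had 1 of 19 lower and none higher, and 4 higher without IGF2BP2 KD replicate 2.

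Of 18 BCL2 family genes 4 rose and 4 fell. BMF had 491, 557 and 530.1 in IGF2BP2 KD and 278, 223 and 260.4 in control libraries, and the anti-apoptotic MCL1 (-0.31) and BCL2L1 (-0.20) fell while BAX (0.096) and BCL2L11 (-0.021) were not called. Of 28 p53 targets 5 rose (SESN1 (0.64), TP53I3 (0.58), TP53INP1 (0.39) and MDM2 (0.21) and BTG2) and 9 fell (AEN (-0.62), PLK3 (-0.56) and CCNG1 (-0.35) among them), and CDKN1A (-0.12) was not called. In the insulin and IGF pathway 9 of 31 rose and 9 fell, with 5 rising without control replicate 2 or 3. The binding proteins IGFBP1 (-1.09) and IGFBP3 (-0.90), the adaptor GRB10 (-0.56) and the kinase PDPK1 (-0.31) fell, and the PI3K subunit PIK3R3 (0.94) rose. IGFBP3 had 640.5, 637 and 654 in IGF2BP2 KD and 1221, 1167 and 1212 in control libraries. The kinase PIK3C2B (0.66) rose among phosphoinositide kinases, and PI4K2B fell.

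Trafficking genes of the early secretory pathway were lower, with 23 of 67 SNARE and coat genes falling and 5 rising (10 rising without IGF2BP2 KD replicate 2). The cargo receptor LMAN1 had 3156, 3002 and 3309.9 in IGF2BP2 KD and 5054, 5201 and 5247 in control libraries (-0.71), and the coat genes SEC23A (-0.63), SAR1A (-0.56) and COPZ1 (-0.52), the SNAREs BET1 (-0.67) and STX16 (-0.52) and the GTPases ARF3 (-0.78) and ARF6 (-0.37) fell. Among 64 Rab genes and partners 15 fell and 8 rose. RAB17, an epithelial Rab, had 56.2, 44.2 and 57.5 in IGF2BP2 KD and 10.5, 11.2 and 11.6 in control libraries (2.14), and RAB15 (0.68) rose while RAB27A (-0.67), RAB11A (-0.49), RAB12 (-0.40) and RAB6A (-0.35) fell. ESCRT genes had 11 of 37 lower (VPS36 (-0.49), SDCBP (-0.42), CHMP4B (-0.36) and HGS (-0.30) among them) and 3 higher, of which CHMP4A (1.15) was the largest.

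Notch genes were lower in 10 of 29 and higher in 3. The receptor NOTCH3 had 99.9, 129 and 119.8 in IGF2BP2 KD and 219, 178 and 190.0 in control libraries (-0.75), the ligand JAG1 (-0.54) and the targets HES7 (-1.32), HES4 (-0.75), HEYL (-0.70) and NRARP (-0.59) fell, and the fringe LFNG (0.70) rose while RFNG (-0.83) fell. Wnt genes had 11 of 39 higher, with ROR1 (0.75), WNT7B (0.69) and RNF43 (0.61), and 9 lower, with the antagonist DKK1 (-1.08) and WNT3 (-0.88) and DVL2 (-0.49). With all 12 libraries 5 rose and 6 fell, and 11 and 9 with double KD replicate 2 left out of that fit. Of 27 Hippo pathway genes and YAP targets 10 fell and 6 rose: the factor TEAD1 (-0.72) and the targets CCN1, CCN2 and ANKRD1 (-0.72) fell, while YAP1 (0.21) and WWTR1 (0.24) rose. Guidance genes split evenly, with 12 of 53 higher and 12 lower, ROBO1 and SEMA5A (0.72) and PLXNA1 (0.65) against PLXNB2 (-0.93), UNC5B (-0.80) and PLXNA2 (-0.72). Of 452 tested ZNF-named zinc finger genes 77 fell (17.0%) and 47 rose (10.4%), and 49 fell without control replicate 2. Interferon-stimulated genes had 5 of 38 higher and 6 lower (3 and 3 without control replicate 3, 3 and 6 without control replicate 2), and of 17 genes of MHC class I presentation 2 fell, HLA-E (-0.28) among them, and 4 rose. Reads of the HLA genes can be shared between near-identical copies.

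Genes that rose had longer transcripts than genes that fell. Among protein-coding genes the median transcript length was 4071 bases for 2073 genes that rose, 3229 for 2588 that fell and 2855 for 8390 that were not called, with 3′ untranslated regions (3′ UTRs) of 1443, 1128.5 and 816 bases. Genes called were also more abundant, at a median of 1056 and 856 normalised counts in IGF2BP2 KD and control libraries for those that rose and 699 and 898 for those that fell, against 434 and 440 for those not called.

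Genes with certain short words in their 3′ UTRs fell more often than others. A 7-base word, AGCGGTA, had the highest share of falls among 15688 words held by at least 100 of 12476 searched genes: of 110 genes that hold it 67 fell (60.9%), against 20.1% of all searched genes, and 5 rose (4.55%), against 16.1%. Their median was -0.31, against -0.020 over all. The word was picked by these same values, which are therefore a description. Of the 10 leading words 3, AGCGGTA among them, overlap in the 3′ UTR of IGF2BP2 itself, and the stretch they cover there reads AGCGGTAATA. The words were ranked with IGF2BP2 left out, so the ranking did not fix that AGCGGTA would stand in its 3′ UTR. Joining the 3 words into the 10-base run was done on the IGF2BP2 transcript, so the length of the run is no separate result. Other leading words, such as TAGCGGT and GCGGTAG, overlap AGCGGTA in other ways. The target was left out of the counts. The run is shown beside some of the large falls whose 3′ UTR holds the 7-base word, GCGGTA within it, or GGTAATA at the end of the run. Sequences are of GENCODE 29 transcripts of GRCh38, with the match in capitals. Falls not shown include S1PR2 (-1.35), which holds GCGGTA, and SLC66A2 (-1.23), which holds AGCGGTA.
IGF2BP2, chr3:185645053-185645082, minus strand: gggtgcctgcAGCGGTAATAtattttagaa
MTPN, chr7:135926934-135926963, minus strand: atatctttctaAGCGGTAatggaggaagac
CCND2, chr12:4302628-4302657, plus strand: gccctctgctgAGCGGTActaaacggtcgg
ICMT, chr1:6224648-6224677, minus strand: cccttcttatcAGCGGTAaaaatgcattta
OSMR, chr5:38935383-38935412, plus strand: acgtagtagaaAGCGGTAtcctgattagtc
SETD7, chr4:139510783-139510812, minus strand: tagtatctctaAGCGGTAactatggcaatt
GNAQ, chr9:77719082-77719111, minus strand: ctgtcatacagAGCGGTActagcgtcgtgc
LOX, chr5:122065150-122065179, minus strand: ctggcggatatAGCGGTAcatatgatcctt
RPL7L1, chr6:42887158-42887187, plus strand: aggtgccaaactGCGGTAaattttttatca
SRI, chr7:88206387-88206416, minus strand: tctttgccttcGGTAATAtgtataaactta
PI4K2B, chr4:25278875-25278904, plus strand: taaaataccatGGTAATAtttgcaaaaggt
CXADR, chr21:17566327-17566356, plus strand: agactgctacaGGTAATAgggacttagcaa
The IGF2BP2 match lies in exon 16 of 16 and the MTPN match in exon 4 of 4. The hairpin sequence was not at hand, and its part in these falls was not tested.

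Among the 110 genes with this word 67 fell, 5 rose and 38 were not called. OSMR, a receptor chain for oncostatin M, had 3008, 3076 and 3099 in IGF2BP2 KD and 6617, 6042 and 6781 in control libraries (-1.08, SE 0.048). GNAQ, a G protein alpha subunit, had 638, 593 and 633 in IGF2BP2 KD and 1286, 1289 and 1294 in control libraries (-1.05), and ICMT, which methylates prenylated proteins, had 667, 613 and 708 in IGF2BP2 KD and 1403, 1632 and 1570 in control libraries (-1.21). In all 3 every IGF2BP2 KD library lay below every control library, as in 22.1% of all genes tested. The word was also in SLC66A2 (-1.23), OXTR (-0.98), PREB (-0.98), LNPK (-0.99), BTBD3 (-0.98), PLXNB2 (-0.93) and WNT3 (-0.88) and, among lower members of the gene groups above, in CCND2, SETD7, LOX, RAB11A, RAB6A, DVL2, PDPK1 and DNAJC10. The 5 holders that rose were HRNR (0.49), ADAMTS15 (0.42), HTT (0.29), MKI67 (0.19) and SF3B1 (0.16). None of the 13 fallen cytokines holds it or GCGGTA or GGTAAT, and among ATF4 targets 5 of 23 searched genes that fell hold either 6-base word, against 22.2% of all searched genes.

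Parts of the 10-base run were also searched for. The 6-base word GCGGTA lies within AGCGGTA, and GGTAAT lies further along the run. Of 350 genes with GCGGTA 47.4% fell, and of 2561 with GGTAAT 30.7% fell. Of 2655 genes with GCGGTA or GGTAAT but without the 7-base word 30.1% fell (median -0.063), and of 9711 with neither 16.9% fell and 16.8% rose (median -0.0076). The 3′ UTRs with the word are long, with a median of 2956 bases against 1027 over all searched genes, so length classes were compared. Holders fell in 55.0% at 1000 to 2000 bases, 59.0% at 2000 to 4000 and 65.8% above 4000. Genes with neither 6-base word fell in 16.3%, 16.0% and 16.9% in the same classes. Shorter classes had too few holders and are left out. The word was picked by these same values, so an excess of falls over all holders was built in, and the classes only describe it. Of 87 searched genes that fell by at least 1 on the log2 scale 10.3% hold the 7-base word and 37.9% either 6-base word. Of 7963 genes not called 0.477% hold the 7-base word and 19.2% either 6-base word.

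**Figure D4:**
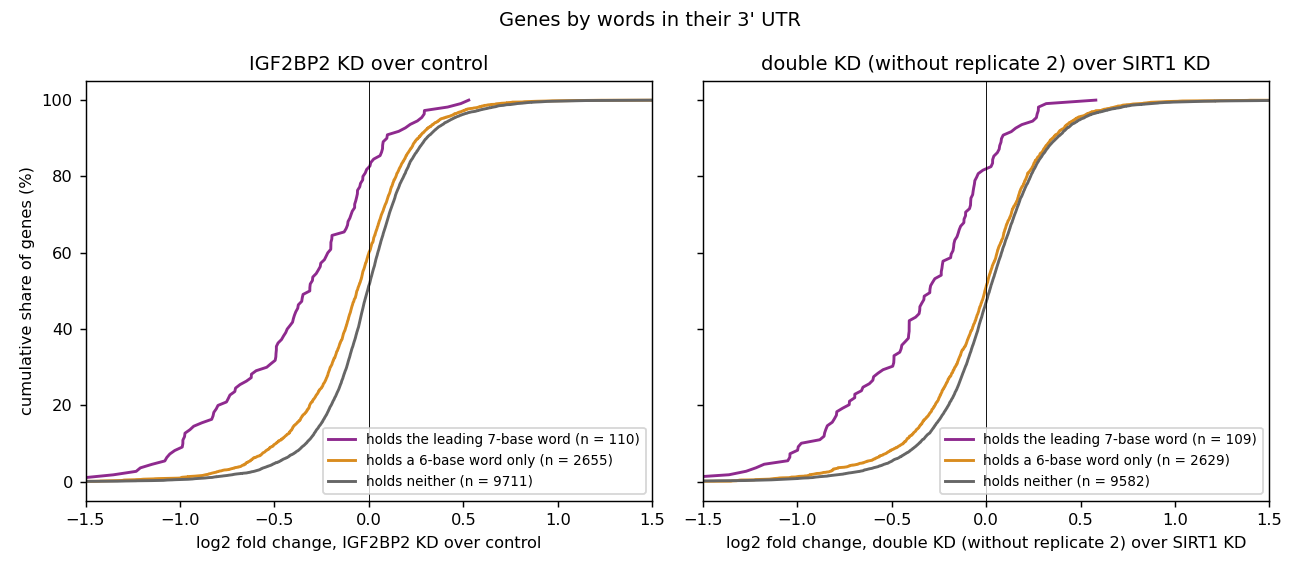
Cumulative share of genes (y axis) by log2 fold change (x axis) for genes whose 3′ UTR holds AGCGGTA, holds GCGGTA or GGTAAT only, or holds neither; left, IGF2BP2 KD minus control, right, double KD without replicate 2 minus SIRT1 KD. In both panels the curve of the holders lies left of the others, with medians of -0.31 (110 genes) and -0.30 (109 genes).

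The same knockdown was read again in cells that all carry the SIRT1 hairpin, as double KD against SIRT1 KD, which shares no library with the comparison above. Double KD replicate 2 stood apart there, with 15243152 reads and 1.18% mitochondrially encoded, against 19539588 to 21312261 reads and 2.40% to 2.57% in the other 5 libraries, so values are also given without it. In this background 1107 genes rose (6.69% of 16549) and 1144 fell (6.91%), and 2607 (15.3%) and 2440 (14.3%) without that library. Of the 2745 genes that fell in IGF2BP2 KD and were tested in both, 848 also fell in double KD (30.9%, and 74.4% of all falls there), and of 2312 rises 588 were shared (25.4%, and 53.2% of the rises there). Without double KD replicate 2 the shared falls were 51.1% and the shared rises 47.6% of those in IGF2BP2 KD. Calls in opposite directions numbered 14 among the rises and 15 among the falls with all libraries, and 45 and 67 without double KD replicate 2.

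The leading falls recurred. IGF2BP2 had 992, 715 and 884 in double KD and 3791, 3759 and 3720.5 in SIRT1 KD libraries (log2 fold change of double KD minus SIRT1 KD -2.13). AREG had 393, 434 and 399.8 in double KD and 1655, 1503 and 1592 in SIRT1 KD libraries (-1.95), and CXCL8 had 352, 376 and 459 in double KD and 1757, 1508 and 1717 in SIRT1 KD libraries (-2.07). All 15 largest falls were also called lower in double KD, from -2.35 for IL24 to -0.85 for CLCN5. Of the 15 largest rises 12 were called higher there, among them ATOH8 at 1.83, SLC40A1 at 1.22 and ID3 at 1.32, while SOX4 (-0.12) and ROBO1 (0.17) were not called and MUC5AC fell. Without double KD replicate 2 ROBO1 was called higher (0.39, adjusted p = 0.0223), which made 13 of the 15. In double KD against SIRT1 KD, cytokines had 9 lower and 2 higher members with a median of -0.67, ATF4 targets 15 lower and 1 higher (-0.33), and ER chaperones 13 lower and none higher (-0.19). Of the tRNA synthetases 4 fell and 1 rose, with a median of -0.078. Of the SWI/SNF and CHD genes 3 rose and 1 fell, with a median of -0.0046. Some groups took the other direction there. Cholesterol and fatty acid synthesis had 1 higher and 5 lower members, and glycolysis and hypoxia 1 higher and 7 lower. Mitochondrially encoded genes had a median of -0.54 with 1 lower. Their share of reads was 1.18% in double KD replicate 2, and 2.45% and 2.40% in double KD replicates 1 and 3. In SIRT1 KD libraries it was 2.54% to 2.57%. DNA replication genes, with a median near 0 in IGF2BP2 KD (0.0099), had a median of 0.41 there, where 25 rose and 0 fell. These list counts and medians include double KD replicate 2 and are not given without it. Genes with AGCGGTA in their 3′ UTR fell in 43.1% of 109 (52.3% without double KD replicate 2), against 8.31% of all searched genes there (16.9%).

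A test of the difference between the backgrounds (interaction, all 12 libraries) called 503 of 17576 genes (2.86%), and 1765 without double KD replicate 2. Of the 30 largest rises and falls 5 were called, and 15 without that library, among the added ones SRI (0.45), CXADR (0.48) and AMMECR1 (0.62). These 30 were picked by their change in IGF2BP2 KD, which enters the interaction, so the shares only describe them. MUC5AC had 179.8, 200.4 and 164 in double KD and 489.5, 520.1 and 564 in SIRT1 KD libraries, and so fell (-1.53) where it rose in IGF2BP2 KD (interaction -2.85, SE 0.14, adjusted p = 1.20e-09). SOX4 had 531, 563 and 561 in double KD and 633, 553 and 618 in SIRT1 KD libraries, and was not called there (interaction -1.07, adjusted p = 3.65e-04). The rises of BMF (0.35) and ANKRD52 (0.35) were smaller in double KD, and the fall of IL24 (-2.35) was larger. IGF2BP3, which rose in IGF2BP2 KD, stood at 0.21 in double KD against SIRT1 KD (adjusted p = 0.201), and its interaction was not called (-0.41, adjusted p = 0.0583). Without double KD replicate 2 both were called, at 0.31 (adjusted p = 1.58e-04) and an interaction of -0.31 (adjusted p = 0.019).

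SIRT1 KD against control uses the same control libraries, so its values are only set beside those of IGF2BP2 KD. For ATOH8 the log2 fold changes were 2.22 in IGF2BP2 KD and -1.19 in SIRT1 KD, for SLC40A1 1.08 and -1.15, for AMMECR1 0.91 and -1.25, and for LRATD2 -1.30 and 1.20. MUC5AC stood at 1.32 in IGF2BP2 KD and 1.32 in SIRT1 KD, ANKRD52 at 0.95 and 1.36, and BTG2 at 0.90 and 1.17. CXCL8 stood at -1.65 in IGF2BP2 KD and -0.059 in SIRT1 KD, and IL24 at -1.65 and -0.12. The holders of AGCGGTA had a median of -0.31 in IGF2BP2 KD and -0.020 in SIRT1 KD.

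**Figure D5:**
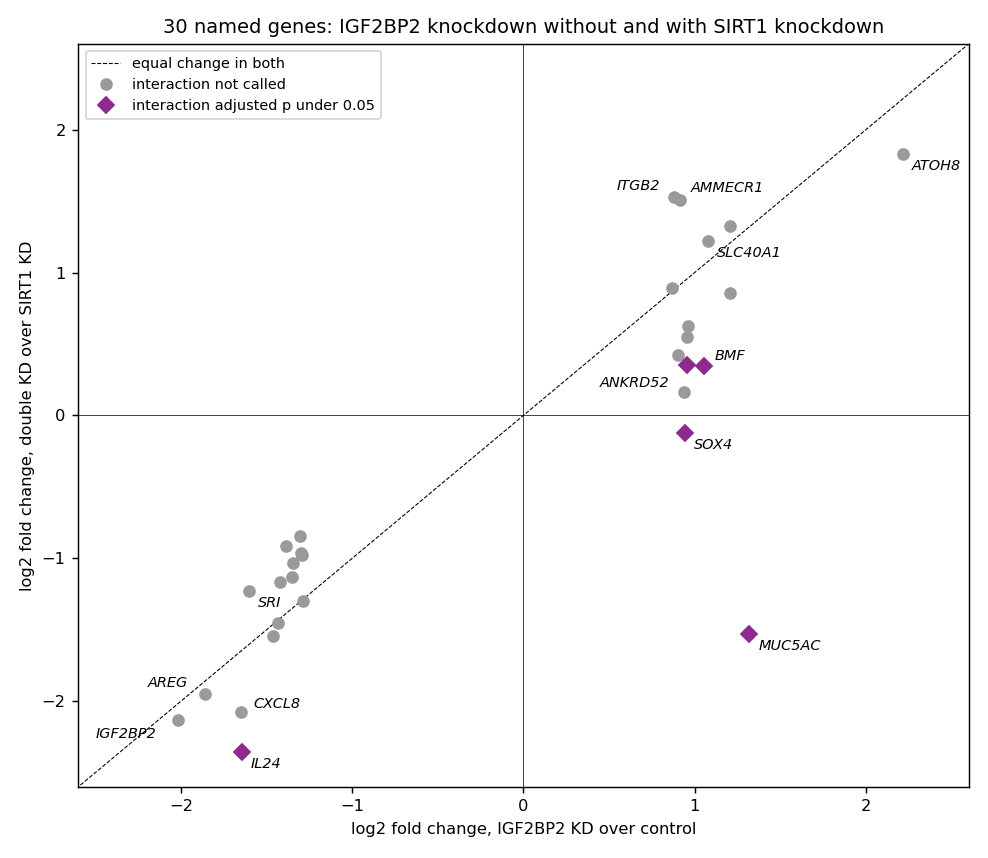
Log2 fold change of the 30 largest rises and falls in IGF2BP2 KD minus control (x axis) and in double KD minus SIRT1 KD (y axis); diamonds mark genes whose difference between backgrounds was called, the line marks equal values. AREG lies near the line at -1.86 and -1.95, and MUC5AC lies far from it at 1.32 and -1.53.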

How the data were processed

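RNA sequencing libraries of 4 groups of 3 were used, with 19522606 to 22509142 assigned reads in IGF2BP2 KD and control libraries and 15243152 to 21312261 in the others. Per the submitters' processing notes, STAR, CASAVA and DESeq2 were used with the build GRCh38.p13, and no versions are given. The authors deposited a signal table of gene counts divided by a size factor for each library. Whole reads were recovered for 100% of values within 0.001, and these reads served the count tests. The authors also deposited a table of log2 ratios, used only to check column codes: over 10672 genes the differences had an SD of at most 0.00192 for the same library and at least 0.104 for any other. The SIRT1 KD code was assigned by elimination. A further 12 count columns that name no sample were not used. Of 60649 gene IDs 60463 matched the gene name table and 58337 matched GENCODE 29, which gave transcript lengths and 3′ UTRs.

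Genes passing edgeR's filterByExpr (minimum count 10) were tested on log2(normalised count + 1) by limma 3.58.1 in R 4.3.3 with trended and robust variances, over the 6 libraries compared. Calls were made at a Benjamini-Hochberg adjusted p under 0.05. A fold change on this scale understates the change of low genes. The interaction was fitted over 12 libraries. The 18 alternatives used edgeR 4.0.16, DESeq2 1.42.0, other scalings, filters, pseudocounts of 0.5 and 5, GC and length correction, a replicate block, other libraries in the fit and each library left out. The fit was tested on simulated data. Counts and intervals cover counting and library error only.

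Named genes were the 15 largest rises and 15 largest falls (protein-coding, mean of at least 5 CPM, no overlap), 5 rises and 5 falls of other classes, the 10 most abundant called genes, the IGF2BP genes and SIRT1, and members of 71 lists by adjusted p. Others were chosen after their values were seen, and some genes that meet the rule are not reported here. The members and lists were chosen with earlier results of these data known. Promoters came from RefSeq (GRCh38.p14). Replicate numbers were not taken to pair samples.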

Additional observations from a re-analysis of the deposited data

Results flagged for a closer look

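For 5 of the 30 largest rises and falls, the effect of the IGF2BP2 hairpin differed between cells with and without the SIRT1 hairpin by the interaction test of all 12 libraries (limma, adjusted over 17576 genes, of which 2.86% were called). The 30 were picked by their change in IGF2BP2 KD, which enters this contrast, so the share of them called is a description. The interaction is the log2 fold change of double KD over SIRT1 KD minus that of IGF2BP2 KD over control. It was -2.85 for MUC5AC (adjusted p = 1.20e-09), with all 3 double KD libraries below all 3 SIRT1 KD libraries and all 3 IGF2BP2 KD libraries above all 3 control libraries. It was -1.07 for SOX4 (adjusted p = 3.65e-04), -0.70 for BMF (adjusted p = 0.0107) and -0.60 for ANKRD52 (adjusted p = 0.00228), which rose less in the second background or were not called there. For IL24, which fell more there, it was -0.71 (adjusted p = 0.0127). Without double KD replicate 2 the values were -2.92 for MUC5AC, -1.08 for SOX4, -0.73 for BMF, -0.65 for ANKRD52 and -0.79 for IL24. Without that library 15 of the 30 were called, the added ones being ROBO1 (-0.54), AMMECR1 (0.62), BTG2 (-0.56), ITGB2 (0.55), SRI (0.45), PI4K2B (0.44), MTPN (0.30), CLCN5 (0.52), LRATD2 (0.30) and CXADR (0.48). The part of that library in these differences was not tested beyond this.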

How the results depend on the processing

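With all 12 libraries in the fit 2857 genes were called (1206 higher, 1651 lower). Leaving out each library in turn gave 3819 to 6036 calls, 1687 to 2864 higher and 2015 to 3172 lower. The other alternatives stayed within 1.5 times of the 2355 higher and 2767 lower, from 1988 and 2274 with DESeq2 to 3003 and 3185 with GC and length correction. Of 52 named genes 8 lost their call with all 12 libraries and 0 to 3 in each other alternative. Of 140 list counts 73 moved by over 1.5 times with all 12 libraries and 0 to 30 in each other alternative. With double KD replicate 2 left out of the fit of all libraries, 6 list counts moved and 2 named genes lost their call. What sets that library apart was not tested.

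Same-numbered libraries did not deviate together (correlations of -0.026, -0.0085 and 0.047), so the numbers were not taken as pairs. With the replicate block 2118 genes rose and 2549 fell in IGF2BP2 KD, 705 rose and 851 fell in double KD against SIRT1 KD (1107 and 1144 without the block), and 457 interactions were called (503 without). In double KD against SIRT1 KD, leaving out each library gave 390 to 2607 rises and 487 to 2440 falls. Without double KD replicate 2, 1765 interactions were called, and 7 uncalled interactions changed sign: ID3 (-0.023), CDC42BPG (-0.14), IGF2BP2 (0.013), SERINC2 (0.033), GALC (0.034), LINC01232 (0.021) and ACTG1 (-0.025).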
